A study of Capra hircus with 12 samples.

Results

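The DNA replication licensing genes are described here in the secondary hair follicles of the goat (Capra hircus), the follicles that grow cashmere. The set holds 10 genes: the 6 subunits of the replicative helicase (MCM2, MCM3, MCM4, MCM5, MCM6 and MCM7), the helicase loaders CDC6 and CDT1, the sliding clamp PCNA and the ribonucleotide reductase subunit RRM2. They were chosen by gene name, and all 10 were found among the 20326 genes listed for every library. RNA sequencing was carried out on 12 libraries of secondary hair follicles isolated from goat skin at an age of 1.5 years. The May and September libraries are from anagen, when the hair grows. Those of November and December are from catagen, when the follicle regresses, and those of February and March from telogen, when it rests. Each month has 1 female and 1 male library, which gives 4 libraries a stage. The labels name no breed, treatment or genotype, and do not say whether a goat was sampled in more than 1 month, so a p-value here reflects only how far these libraries spread.

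Before a cell copies its DNA, each replication origin has to be licensed. The origin recognition complex binds the DNA, CDC6 and CDT1 join it, and together they load the MCM2 to MCM7 hexamer as a double ring, which is later switched on as the helicase that opens the DNA. PCNA then holds the polymerases on the template, and RRM2 makes, with RRM1, the deoxynucleotides that they use. The MCM genes, PCNA, CDC6, CDT1 and RRM2 are known targets of E2F transcription factors, and MCM proteins and PCNA are widely used as markers of cycling cells. In a growing hair follicle the dividing cells are mainly the matrix cells of the bulb, which feed the shaft and the inner root sheath, and the bulb regresses before the resting stage.

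The values used throughout are the abundances that the authors deposited under a TPM heading, a measure of transcript level per length. They summed to between 904623 and 1127797 a library, so they are not plain TPM, whose sums are equal, and the number of reads behind a value is unknown. The telogen libraries stood apart from the others on the leading principal component, with 52.1% of the variance. They lay at 22.97 to 56.4 and all others at -35.7 to -6.82, and the March male library was the telogen library nearest to the others. Anagen (-35.3 to -18.8) and catagen (-35.7 to -6.82) overlapped on it. Transcripts of the mitochondrial genome took up 1.83% ± 0.413 of the summed values in anagen, 2.99% ± 0.629 in catagen and 9.25% ± 3.18 in telogen (SD, n = 4 each), and 4.63% in the March male library. Cytosolic ribosomal protein genes took up 19.8% ± 2.14 in anagen, 23.6% ± 2.01 in catagen and 14.7% ± 2.34 in telogen. Inner root sheath markers (5 of 9 listed genes used) summed to 3589 to 12185 in telogen, against 12379 to 18722 in catagen. Of these 5, 3 were called lower and 1 higher in telogen by limma, beside 19% and 24.5% of all genes. The higher one was GATA3, at 79.5 ± 9.09 in telogen and 53.9 ± 6.87 in catagen. Hair shaft markers (5 of 11) summed to 212 to 670.0 in telogen, against 734 to 1186 in catagen. Both lists, which mark the follicle, were thus read in every library. Hair matrix regulators (7 of 7) summed to 322 to 424 in anagen, 405 to 524 in catagen and 334 to 559 in telogen. Of these 7, 4 were called lower in anagen than in telogen and none higher by limma, beside 29.2% of all genes called lower. In telogen against catagen 1 was called higher and 1 lower, beside 24.5% and 19% of all genes. Lymphocyte and myeloid markers (12 of 12) summed to 117 to 146 in telogen, against 61.9 to 78.6 in catagen. Skeletal muscle markers (10 of 13) summed to 91.4 to 311 in anagen, 67.65 to 113 in catagen and 48.9 to 76.3 in telogen. Both May libraries (291.5 and 311) stood apart from the September libraries (91.4 and 99.35). Outside May, TPM2 alone made up most of each sum, with 84.9 and 88.6 in September, against 48.7 and 34.4 in May. MYLPF had 63.3 in both May libraries and at most 1.82 in any other. In September against May, 8 of the 10 markers were called lower and none higher by limma, beside 0.137% of all genes called. The part of these shifts in the changes below was not tested. In bulk RNA, fewer cells of a type and less RNA per cell cannot be told apart.

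All 10 genes were read in all 12 libraries, but their levels spanned a wide range. MCM7 and PCNA were the most abundant of the set in each stage, and CDT1 and CDC6 the least abundant in anagen and catagen. In anagen, MCM7 averaged 68.7 ± 3.15 and PCNA 53.0 ± 6.96 (SD, n = 4), and no library of either overlapped the next gene down. MCM3, MCM5, RRM2, MCM6 and MCM4 followed at means of 31.2 to 23.9, each overlapping its neighbour in that order. MCM2 stood apart at 16.4 ± 1.09, above CDT1 at 7.92 ± 1.06 and CDC6 at 7.385 ± 0.572, which overlapped. The order in catagen differed mainly in RRM2, which came next after PCNA at 35.8 ± 4.57, and in MCM7 and PCNA, which overlapped at 68.0 ± 6.05 and 65.6 ± 7.14. In telogen the order of the lower genes was another: RRM2 (31.6 ± 5.19) stood clear of MCM4 (19.9 ± 2.17), and CDC6 (10.6 ± 1.65) came above MCM2 (9.91 ± 2.93), although those last 2 overlapped. CDT1 was then the lowest at 5.84 ± 1.40.

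**Figure D1:**
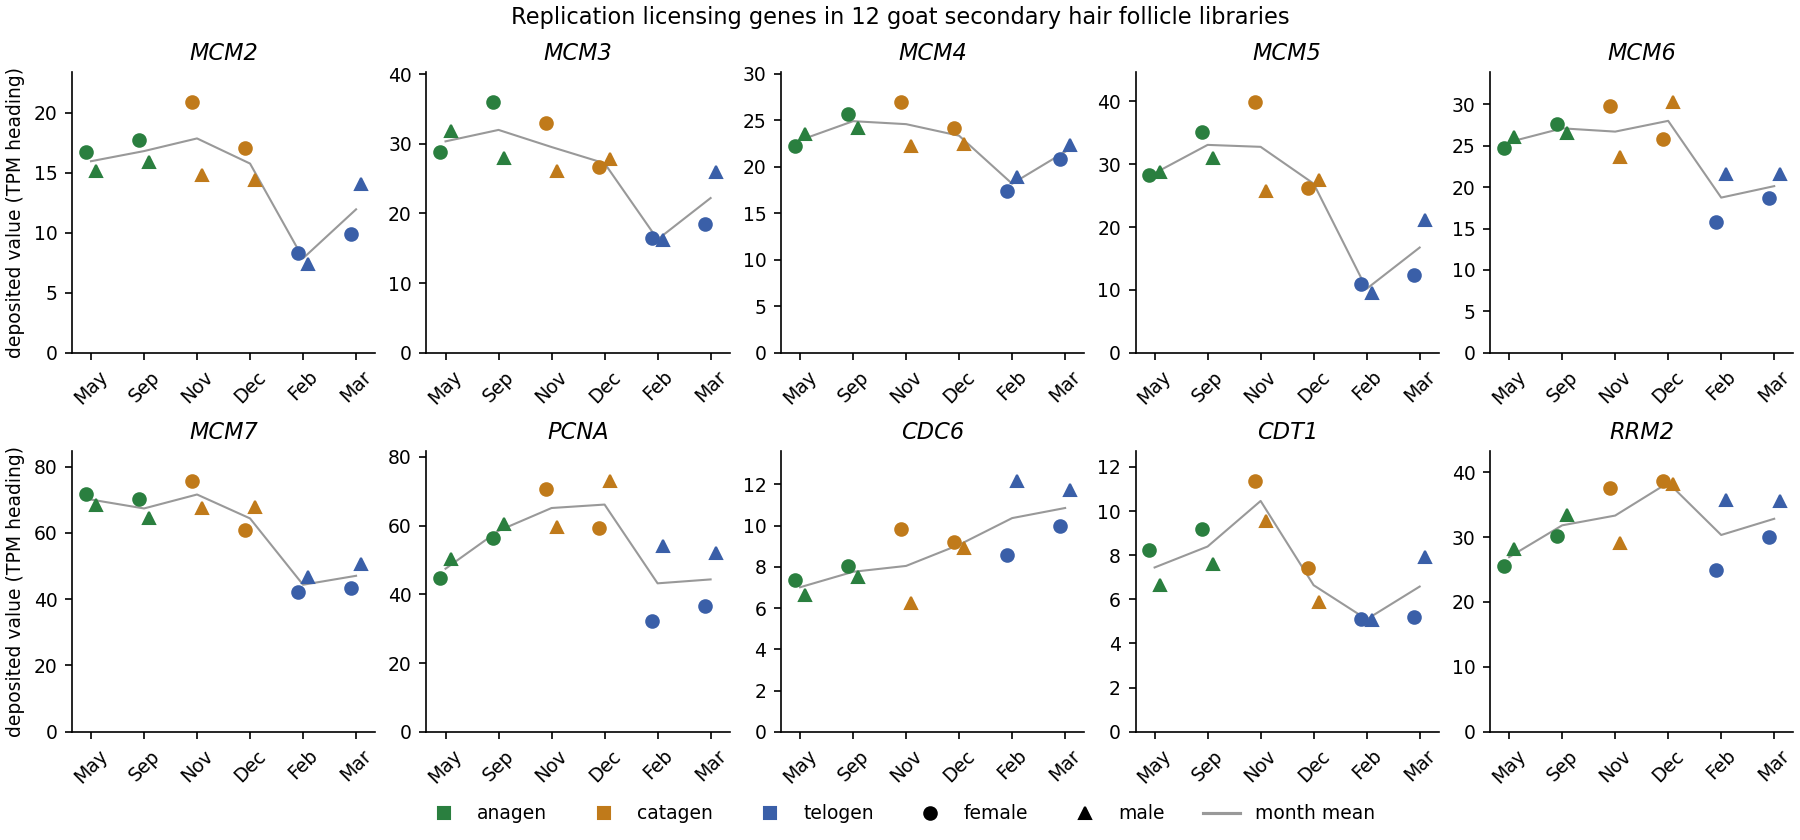
Deposited value (TPM heading) of each of the 10 genes in the 12 libraries, by month of sampling; circles are female and triangles male libraries, colours mark the stage, and the grey line joins the month means. MCM2 to MCM7 lie lowest in February and March, and CDC6 lies higher there than in May and September. RRM2 overlaps between all 3 stages, with its highest values in the November female and both December libraries.

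The MCM subunits were lower in telogen than in catagen, MCM5 by the largest margin of the 6. MCM5 had values of 10.9, 9.48, 12.4 and 21.1 in the telogen libraries (February female and male, March female and male), against 39.9, 25.7, 26.3 and 27.6 in the catagen libraries (November female and male, December female and male). Every telogen library lay below every catagen library, with the March male library the highest of its stage and the November female library the highest of its own. The telogen mean was 45.1% of the catagen mean, a log2 difference of -1.13 (SE 0.204, limma adjusted p = 0.00136), and -1.36 without the March male library. MCM5 and MCM2 face each other at the gate of the hexamer, the place where the ring opens around DNA.

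MCM2 had 8.31, 7.43, 9.86 and 14.0 in the telogen libraries, against 20.9, 14.85, 17.1 and 14.4 in the catagen libraries. The groups again did not overlap, although the March male library came close to the December male library. MCM2 fell by 0.73 on the log2 scale (SE 0.164, limma adjusted p = 0.00418). MCM7, a subunit of the catalytic MCM4, MCM6 and MCM7 core, had a narrow spread for its level: 42.03, 46.7, 43.4 and 50.7 in telogen, against 75.6, 67.6, 60.8 and 68.0 in catagen. Its telogen mean was 67.2% of its catagen mean (log2 difference -0.56, SE 0.0910, limma adjusted p = 0.000850), the lowest adjusted p of the set.

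MCM3, the partner of MCM5 in the ring, had 16.4, 16.1, 18.4 and 26.0 in telogen, against 33.0, 26.1, 26.6 and 27.8 in catagen. All 4 telogen libraries were below the catagen libraries, but the March male library missed the November male library by little. MCM6 had 15.8, 21.65, 18.7 and 21.6 in telogen, against 29.8, 23.6, 25.8 and 30.25 in catagen, without overlap. Both fell, MCM3 by 0.56 (SE 0.142, limma adjusted p = 0.00802) and MCM6 by 0.48 (SE 0.112, limma adjusted p = 0.00529) on the log2 scale. MCM4 was the least changed subunit. It had 17.4, 18.9, 20.9 and 22.4 in telogen, against 26.9, 22.2, 24.2 and 22.5 in catagen, and these groups overlapped. Its log2 difference of -0.26 (SE 0.0969) passed narrowly (limma adjusted p = 0.0457) and missed the threshold in 18 of 23 alternative settings, with an adjusted p of up to 0.278. Among these were all fits without a single library, other than those without the November male or the March male library.

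Counting all 10 genes, 7 were called lower in telogen than in catagen at an adjusted p under 0.05 and none was called higher. Among all 16095 genes tested in this comparison, 43.6% were called, 24.5% higher and 19% lower. The 7 were the 6 MCM genes and PCNA, and the same 7 with CDT1 passed without the March male library. In 6 of the 10 the 4 telogen libraries all lay below the 4 catagen libraries, which held for 15.9% of all genes tested, and in none did they all lie above, which held for 19.9%. The median log2 difference of the 10 was -0.52, beside 0.07 over all genes tested. When each library was rescaled to the same sum, the median over all genes was 0.15, and 4373 genes were called higher and 2052 lower, in place of 3948 and 3063. The 7 genes were negative under each scaling tried.

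**Figure D2:**
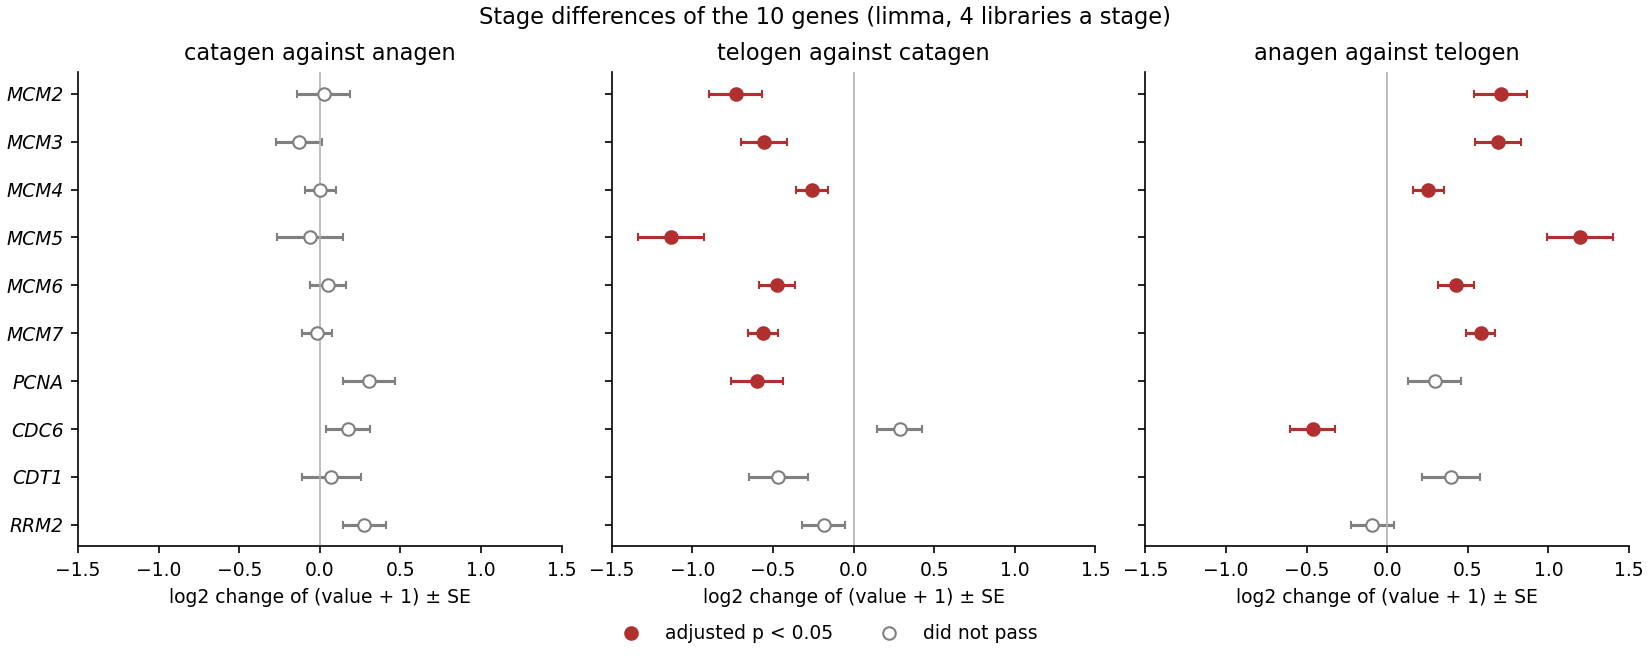
Log2 difference of (value + 1) between stages for each of the 10 genes, with bars of 1 SE; filled points passed at a limma adjusted p under 0.05. In telogen against catagen and in anagen against telogen the MCM genes differ in opposite directions, CDC6 is opposite in sign to them in both, and no gene passes in catagen against anagen.

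Set against the telogen libraries, which serve in both comparisons, the 6 MCM genes were higher in anagen. MCM5 had 28.35, 28.8, 35.2 and 31.0 in the anagen libraries (May female and male, September female and male), all above the telogen libraries given above, and differed by 1.19 on the log2 scale (SE 0.204, limma adjusted p = 0.000563). MCM2 had 16.8, 15.2, 17.7 and 15.9 in anagen, with no telogen library above 14.0 (log2 difference 0.71, limma adjusted p = 0.00333). MCM3 had 28.8, 31.9, 36.0 and 28.0 in anagen, where the highest telogen library had 26.0 (log2 difference 0.69, limma adjusted p = 0.00168). These 3 subunits had the 3 largest differences of the set. MCM7 had 71.7, 68.4, 70.3 and 64.5 in anagen and no telogen library above 50.7 (log2 difference 0.58, limma adjusted p = 0.000366). MCM6 had 24.8, 26.1, 27.6 and 26.6, again all above telogen (log2 difference 0.43, limma adjusted p = 0.00683). MCM4 had 22.25, 23.5, 25.7 and 24.15, and its lowest anagen library lay below its highest telogen library (log2 difference 0.26, limma adjusted p = 0.0401). MCM4 missed the threshold in 12 of 23 alternative settings (adjusted p up to 0.208), among them the fits without the May male, either September, the December female or either February library.

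Of the 10 genes, 6 were thus called higher in anagen than in telogen, and CDC6 was called lower. Over all genes tested 52.9% were called, 23.7% higher and 29.2% lower. The groups did not overlap for 5 genes with anagen above (20.1% of all genes tested) and for CDC6 with anagen below (23.2%). The median log2 difference of the 10 was 0.41, beside -0.07 over all genes. Without the March male library the count was 8, CDT1 being added, and without both May libraries it was 5. Of the 10 skeletal muscle markers, 3 were called higher in anagen than in telogen and none lower by limma, and their summed level was highest in the May libraries. Their part in the differences was not tested, and without both May libraries MCM2, MCM3, MCM5, MCM6 and MCM7 were called, with a log2 difference of 1.30 for MCM5 (limma adjusted p = 0.00619), while MCM4 (limma adjusted p = 0.0675) and CDC6 (limma adjusted p = 0.101) were not.

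The 2 helicase loaders did not follow each other. CDC6, the ATPase that recruits the MCM ring to the origin recognition complex, had 7.38, 6.64, 8.03 and 7.49 in anagen, 9.86, 6.23, 9.21 and 8.93 in catagen, and 8.58, 12.15, 9.98 and 11.7 in telogen. Every anagen library was below every telogen library, and catagen overlapped both. CDC6 was lower in anagen than in telogen by a log2 difference of -0.46 (SE 0.139, limma adjusted p = 0.0141), which did not pass without both May libraries (-0.40, adjusted p = 0.101). Between telogen and catagen the difference of 0.29 (SE 0.139) did not pass (limma adjusted p = 0.111), except when the libraries were rescaled to the same sum (0.37, adjusted p = 0.0452). CDC6 thus ran opposite in sign to the MCM genes in both comparisons.

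CDT1, the other loader, which geminin holds back once replication has begun, had 8.22, 6.67, 9.20 and 7.59 in anagen, 11.35, 9.57, 7.40 and 5.88 in catagen, and 5.13, 5.06, 5.22 and 7.94 in telogen. Within telogen, 3 libraries lay close together and the March male library was higher, within the range of anagen. Its catagen libraries split by month, both November libraries lying above both December libraries. The log2 difference of telogen from catagen was -0.47 (SE 0.182, limma adjusted p = 0.0527), and that of anagen from telogen 0.40 (limma adjusted p = 0.0823). Neither passed with all libraries. Without the March male library both did, at -0.60 (adjusted p = 0.0142) and 0.53 (adjusted p = 0.0219), and so did telogen against catagen without the December male library (-0.61, adjusted p = 0.0164) or after quantile normalisation (-0.51, adjusted p = 0.0368).

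PCNA fell in telogen relative to catagen but was not called between anagen and telogen. It had 44.7, 50.2, 56.5 and 60.5 in anagen, 70.6, 59.6, 59.4 and 72.9 in catagen, and 32.2, 54.2, 36.6 and 52.0 in telogen. The telogen libraries divided by sex, the males at 54.2 and 52.0 and the females at 32.2 and 36.6, and only the males reached into the anagen range. Telogen was below catagen in every library (log2 difference -0.60, SE 0.162, limma adjusted p = 0.0103), while anagen against telogen gave 0.29 (SE 0.162, limma adjusted p = 0.141).

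RRM2, the small subunit of ribonucleotide reductase whose level limits the enzyme outside S phase, was not called in any stage comparison. It had 25.6, 28.2, 30.2 and 33.4 in anagen, 37.6, 29.0, 38.6 and 38.2 in catagen, and 24.9, 35.7, 30.0 and 35.6 in telogen. The ranges overlapped in all 3 pairs. Telogen against catagen gave a log2 difference of -0.18 (SE 0.133, limma adjusted p = 0.281) and anagen against telogen -0.09 (SE 0.133, limma adjusted p = 0.577). RRM1, the large subunit, averaged 34.0 ± 1.31 in anagen, 38.1 ± 3.79 in catagen and 38.5 ± 2.93 in telogen (SD, n = 4 each), and it too was not called, with 0.01 for telogen against catagen (limma adjusted p = 0.911) and -0.17 for anagen against telogen (limma adjusted p = 0.124).

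Between the regressing and the growing follicles no difference was called in these genes. None of the 10 passed in catagen against anagen by limma. Unadjusted, none of the 10 had a p under 0.05, beside 2519 of the 16095 genes tested. Over all genes 9 of 16095 were called (0.0559%), 0 higher (0%) and 9 lower (0.0559%). All 10 genes overlapped between the stages, beside non-overlap in 3.4% of all genes with catagen above and 3.63% with catagen below. PCNA at 0.31 (SE 0.162, limma adjusted p = 0.362) and RRM2 at 0.28 (SE 0.133, limma adjusted p = 0.330) had the largest log2 differences, both with catagen above. The other 8 lay between -0.13 (MCM3) and 0.17 (CDC6). The SE of the MCM genes here was 0.0910 to 0.204, so a small difference would not have been detectable.

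Among the 6 steps from month to month, February against December had the most calls in these genes. In February against December, 5 genes were called lower: MCM5 (log2 difference -1.32, limma adjusted p = 0.0188), MCM2 (-0.92, limma adjusted p = 0.0227), MCM3 (-0.71, limma adjusted p = 0.0329), MCM6 (-0.57, limma adjusted p = 0.0495) and MCM7 (-0.53, limma adjusted p = 0.0293). Of all genes tested 16.6% were called, 8.9% higher and 7.69% lower. With 2 libraries a month these calls rest on single libraries: the count was 0 without the December female, the December male or the February male library, 1 without the February female library and 2 without either May library or both. PCNA (-0.64, limma adjusted p = 0.0891) and MCM4 (-0.34, limma adjusted p = 0.0835) were not called.

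Across the turn of the cycle, in May against March, 2 genes were called higher: MCM7 (log2 difference 0.57, limma adjusted p = 0.0158) and MCM5 (0.78, limma adjusted p = 0.0394). Over all genes 27.4% were called, 13.9% higher and 13.4% lower. Of the 10 skeletal muscle markers 8 were called higher, with sums of 291.5 and 311 in May, against 48.9 and 64.2, mostly TPM2, in March. The part of these markers in the MCM differences was not tested. This count was 0 without either May library or the March female library, 4 without the March male library, and 1 without any single September, December or February library.

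No gene of the set was called by limma in the other 4 steps. In September against May 0.137% of all genes were called, in November against September 0.0186%, in December against November 0%, and in March against February 0.00621%. At an unadjusted level of 0.05, but not after adjustment, CDT1 stood out in December against November with a log2 difference of -0.59 (limma adjusted p = 0.946). So did MCM5 (0.62) and MCM2 (0.53) in March against February (limma adjusted p = 0.988 for both). None of the 10 passed this unadjusted level in the first 2 of these steps. Of the 16095 genes tested, 1572, 299, 588 and 636 passed it in the 4 steps, in the order given above. The F test over the 6 months was passed by MCM5 (limma adjusted p = 0.00731), MCM7 (limma adjusted p = 0.0116), MCM2 (limma adjusted p = 0.0157) and MCM3 (limma adjusted p = 0.0218), where 32.7% of all genes passed. Without the February female or the February male library 2 of the 10 passed.

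The sexes were compared last. In male against female libraries, with month as a covariate, 0.0559% of all genes were called by limma and none of the 10. At an unadjusted level of 0.05 none of the 10 passed either, beside 1185 of the 16095 genes tested. PCNA had the largest difference, 0.26 (SE 0.119, limma adjusted p = 0.675). The interaction of sex with stage was called for 0.00621% of all genes and for none of the 10. CDC6 (limma adjusted p = 0.539), PCNA (limma adjusted p = 0.573) and RRM2 (limma adjusted p = 0.613) had the lowest p-values, and in telogen the male libraries were above the female libraries of the same month in all 3 genes.

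The log2 differences of the MCM genes were unequal in size, so the make-up of the set was examined within each library. The scaling of the library cancels in the share of each subunit, but not in the sum of the 6. The 6 subunits together summed to 197 ± 10.2 in anagen, 194 ± 21.7 in catagen and 128 ± 19.5 in telogen (SD, n = 4 each). The 4 telogen libraries had 111, 120.3, 124 and 156, all below the lowest library of the other stages at 180.1. MCM5 made up 15.6% ± 0.957 of the sum in anagen, 15.2% ± 1.61 in catagen and 10.3% ± 2.36 in telogen, where its share was 9.82%, 7.88%, 10.03% and 13.5%. MCM4 made up 12.1% ± 0.471 in anagen, 12.4% ± 0.727 in catagen and 15.7% ± 1.02 in telogen, so that it stood above MCM5 in the telogen sum and below it in the other stages. MCM7 took up 34.9% ± 1.81, 35.1% ± 1.94 and 36.1% ± 2.84 in anagen, catagen and telogen. MCM2 and MCM6 had overlapping shares in all 3 stages. The MCM3 shares of catagen (14.5% to 14.7%) lay just below those of anagen (14.7% to 16.9%), and telogen overlapped both.

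**Figure D3:**
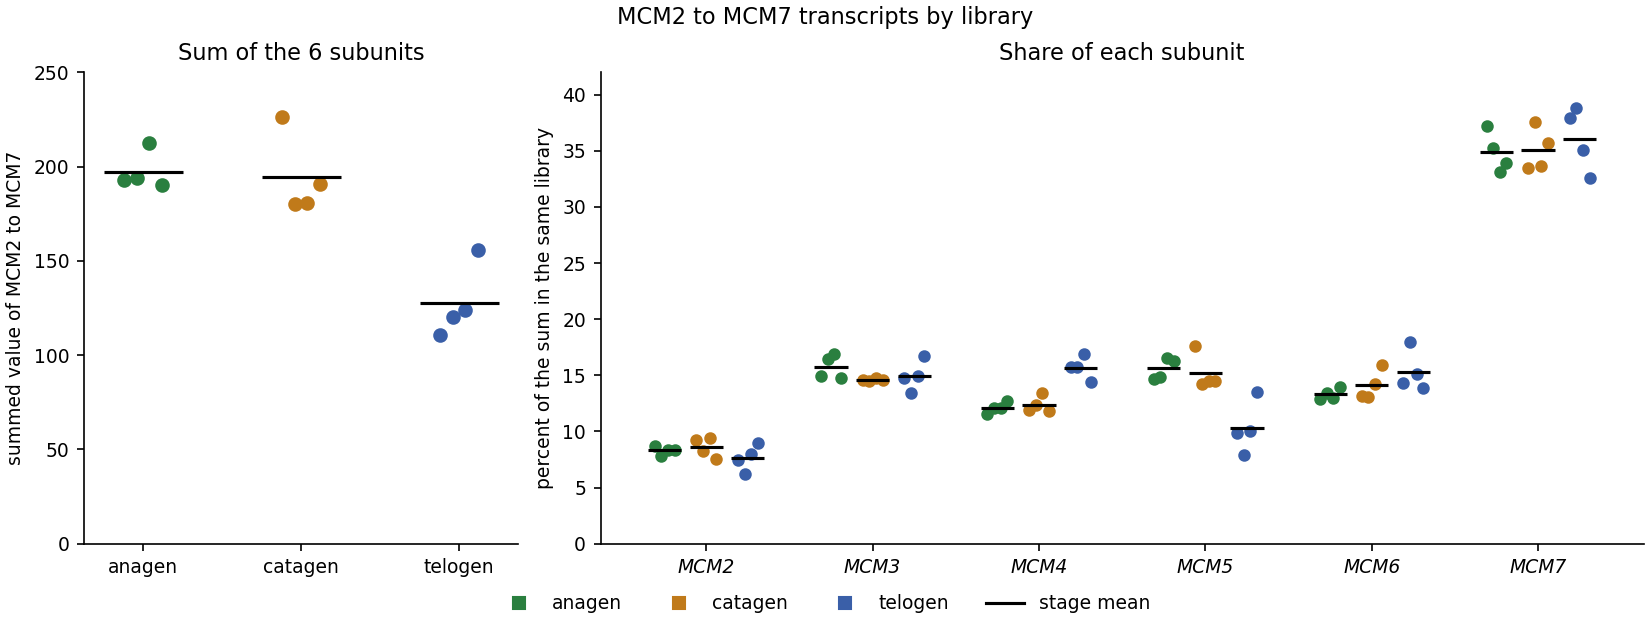
Left, summed value of MCM2 to MCM7 in each library by stage; right, percent of that sum taken up by each subunit, with black bars for stage means of 4 libraries. The telogen sums reach at most 156 and all others at least 180.1, and within the sum MCM5 is lower and MCM4 higher in telogen than in the other stages.

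Each gene was also set against MCM7 within its library, the reference being chosen after the values were seen. MCM7 was itself lower in telogen than in catagen or anagen, so a gene with an unchanged level has a higher ratio in telogen. Of 27 ratios tested between stages (9 genes, 3 comparisons), 5 reached the smallest p that a two-sided exact permutation test of 4 against 4 libraries can give (p = 0.0286). None passed after adjustment over the 27 (adjusted p = 0.154). With that smallest p, a ratio could pass only if many more than 5 of the 27 reached it, so this outcome decides nothing about single ratios. CDC6 stood at 0.231 ± 0.0229 of MCM7 in telogen, against 0.126 ± 0.0248 in catagen (SD, n = 4 each, exact permutation p = 0.0286). In anagen it stood at 0.108 ± 0.00914, without overlap with telogen (exact permutation p = 0.0286). RRM2 stood at 0.688 ± 0.0714 of MCM7 in telogen and 0.531 ± 0.0879 in catagen, which overlapped (exact permutation p = 0.0571). In anagen it stood at 0.429 ± 0.0667, below telogen in every library (exact permutation p = 0.0286). This RRM2 ratio differed by -0.69 on the log2 scale in anagen against telogen, where RRM2 alone differed by -0.09 and MCM7 by 0.58. It thus mostly restates the MCM7 difference. MCM4 was the remaining gene with such ratios, at 0.348 ± 0.0286 in anagen, 0.354 ± 0.0324 in catagen and 0.435 ± 0.0336 in telogen. The MCM5 ratio was 0.291 ± 0.0901 in telogen and 0.436 ± 0.0644 in catagen (exact permutation p = 0.0857), and 0.449 ± 0.0494 in anagen (exact permutation p = 0.0571 against telogen), with overlap in each comparison. The MCM2, MCM3, MCM6, PCNA and CDT1 ratios also overlapped in all 3 comparisons.

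**Figure D4:**
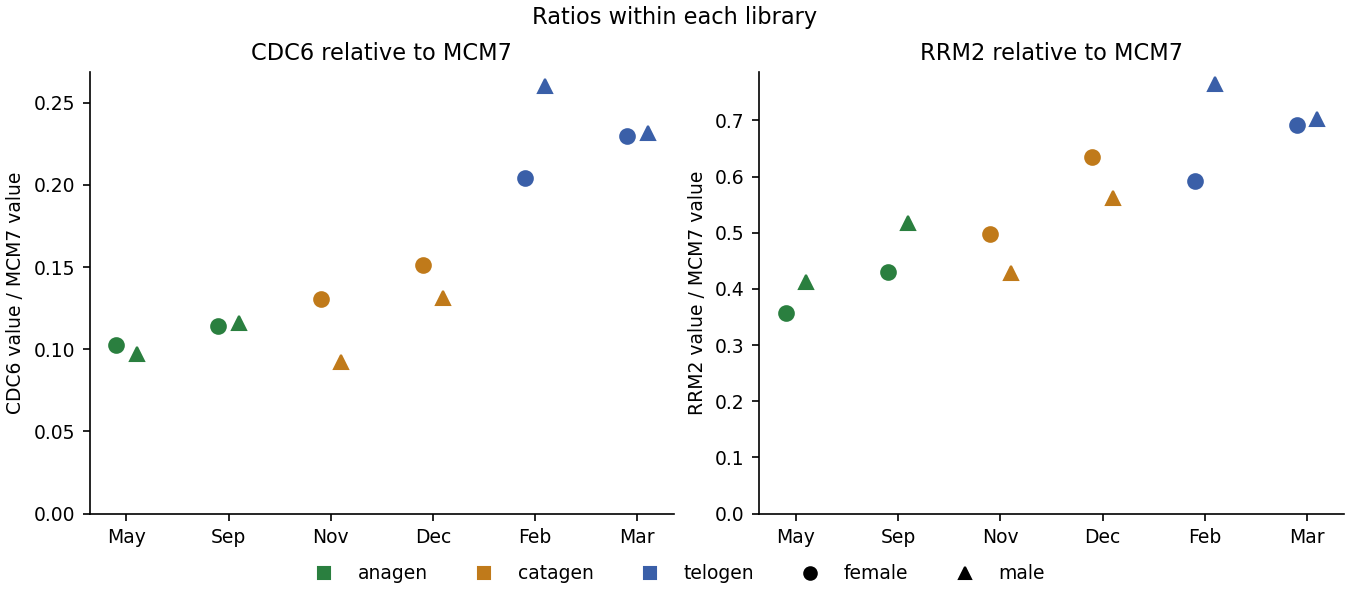
Ratio of the CDC6 value (left) and of the RRM2 value (right) to the MCM7 value in each library, by month; circles are female and triangles male libraries, coloured by stage. The 4 telogen libraries have a CDC6 ratio of at least 0.204 and the other 8 one of at most 0.152, while the RRM2 ratios of telogen and catagen overlap.

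Around the 10 genes, other genes of replication were counted by list, the lists being chosen for their known roles. Each count is read beside the share of all genes called, which was 24.5% higher and 19% lower in telogen against catagen, and 23.7% higher and 29.2% lower in anagen against telogen. The origin recognition complex, which marks origins before the MCM ring is loaded, had 2 of 6 subunits called higher in telogen than in catagen and none lower by limma, beside 24.5% of all genes higher. These were ORC4 (log2 difference 0.61) and ORC3 (0.33), and the median of the 6 was 0.13. The count was 1 without the November female, November male, December female, February male or March female library. ORC4 had 87.0, 106.55, 83.3 and 74.95 in telogen, against 48.6, 53.2, 60.2 and 67.4 in catagen, so its groups did not overlap. Relative to telogen, 4 of the 6 were lower in anagen: ORC4 (-0.85), ORC3 (-0.64), ORC2 (-0.49) and ORC5 (-0.33), with a median of -0.41.

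Regulators of licensing went both ways. In telogen against catagen 3 of 14 were higher and 6 lower, beside 24.5% and 19% of all genes (median -0.11), and after rescaling to the same library sum 5 were called in all. SSRP1 (-0.64) and SUPT16H (-0.21), the subunits of the histone chaperone FACT, and CUL4A (-0.69), a scaffold of the ubiquitin ligase that destroys CDT1 in S phase, were lower, and SKP2 (0.49), a receptor of another such ligase, was higher. For anagen against telogen the counts were 4 higher and 5 lower (median -0.03), among them SSRP1 (0.42), DDB1 (0.31), CUL4A (0.86) and SKP2 (-0.51). Helicase activation is the step that turns the loaded ring into a working helicase, and its list also held fork factors such as TIPIN and TIMELESS. Of its 17 genes, 3 were higher and 3 lower in telogen against catagen, again beside 24.5% and 19% (median -0.03). The most abundant that passed were TOPBP1 (0.28), TIPIN (0.29) and MCM10 (0.31), which were higher, and TIMELESS (-0.37), the partner of TIPIN, which was lower. All 3 higher genes are thus named, but not all 3 lower ones. Anagen against telogen gave 5 higher and 5 lower (median -0.13), with TOPBP1 (-0.44), TIPIN (-0.36), MTBP (0.46) and the MCM kinase CDC7 (-0.75) as the most abundant.

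The list of MCM relatives outside the hexamer, which also held MCM3AP, was split as well. MCM9, which works with MCM8 in recombination, was higher in telogen than in catagen (log2 difference 0.54, limma adjusted p = 0.00220), and MCM3AP, a binding partner of MCM3, was lower (-0.33, limma adjusted p = 0.0268). MCM8 (0.13) and MCMDC2 (0.15) did not pass, and the median of the 4 was 0.14. Without either November or either February library 1 of the 4 was called. MCM3AP was higher (0.49) and MCM9 lower (-0.46) in anagen than in telogen, with a median of -0.28. Of the 4 genes of this list and the 6 hexamer subunits, the limma test thus called the 6 subunits and MCM3AP lower in telogen, and MCM9 higher. Apart from the binding partner MCM3AP, no gene of the list was called lower, beside 19% of all genes called lower and 24.5% higher. A list of 4 genes is too short to be set apart from these shares. MCMDC2 read only 0.61 to 1.49 over the libraries, close to the filter value of 1.

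Downstream of licensing, polymerases and fork factors had 12 of 37 genes lower and 3 higher in telogen against catagen, beside 19% and 24.5% of all genes (median -0.11). POLE4 (-1.51), a small subunit of polymerase epsilon, RNASEH2C (-0.89), a subunit of ribonuclease H2, and KIAA0101 (-0.72), the PCNA-associated factor, were lower, and the clamp loader subunit CHTF8 (0.25) was higher. Anagen against telogen had 10 genes that were higher and 13 lower (median -0.02), among them POLE4 (1.93) and RNASEH2C (0.73), which were higher, and TOP2A (-0.49) and POLE3 (-0.46), which were lower. Deoxynucleotide supply, the pathway of RRM2, had 5 of 12 genes lower and 2 higher in telogen against catagen, beside the same shares (median -0.09). DUT (-1.11), CTPS1 (-0.80) and DTYMK (-0.50) were among the lower ones. In anagen against telogen 5 were higher and 4 lower (median -0.03), with DUT (0.96), CTPS1 (1.09) and DTYMK (0.57) among the higher ones.

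E2F and G1/S control genes, among them the E2F factors that act on the licensing genes, had 9 of 30 higher and 8 lower in telogen against catagen, beside 24.5% and 19% of all genes (median 0.08), and 11 called in all without the November male or the February male library. CCND2 (-0.35) and CDKN1B (-0.36) were lower, and E2F5 (0.61) and the pocket protein RBL2 (0.47), which act mainly as repressors, were higher. Of the activator E2F genes, named after their values were seen, E2F1 and E2F2 were lower in telogen and E2F3 (0.08) did not pass the test. E2F1 averaged 3.93 ± 1.23 in telogen and 6.56 ± 0.987 in catagen (SD, n = 4 each, log2 difference -0.64, limma adjusted p = 0.00717), and E2F2 averaged 7.64 ± 1.76 in telogen and 12.2 ± 2.12 in catagen (-0.62, limma adjusted p = 0.00642). Between anagen and telogen, 6 were higher in anagen and 13 lower (median -0.19), with MYC (-0.94), E2F5 (-0.75) and CCNA2 (-0.36) lower and TFDP1 (0.36) higher, as were E2F1 (0.61) and E2F2 (0.75). Mitosis genes had 3 of 20 higher and 3 lower in telogen against catagen, beside 24.5% and 19% of all genes (median -0.10). CCNB1 (-0.61) and CDK1 (-0.72) were lower, and TPX2 (0.32) and MKI67 (0.43, limma adjusted p = 0.0161) were higher. In anagen against telogen 2 were higher and 6 lower (median -0.19), with CDK1 (0.41) higher and NUSAP1 (-0.42), TPX2 (-0.60) and MKI67 (-0.37) lower. MKI67, the gene of the proliferation antigen Ki-67, averaged 16.7 ± 1.97 in telogen and 12.2 ± 2.16 in catagen, opposite in sign to the MCM genes. Its telogen libraries overlapped those of catagen and those of anagen. Its anagen call was lost without either September, the February male or the March female library, and with month means (limma adjusted p up to 0.0722). In catagen against anagen no gene of any of these 8 lists was called by limma. An unadjusted p under 0.05 was reached by 2519 of the 16095 genes tested. It was reached by 12 of 37 polymerase and fork genes and 9 of 20 mitosis genes. None of the 14 licensing regulators or the 4 MCM relatives reached it, and the other lists lay between.

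**Figure D5:**
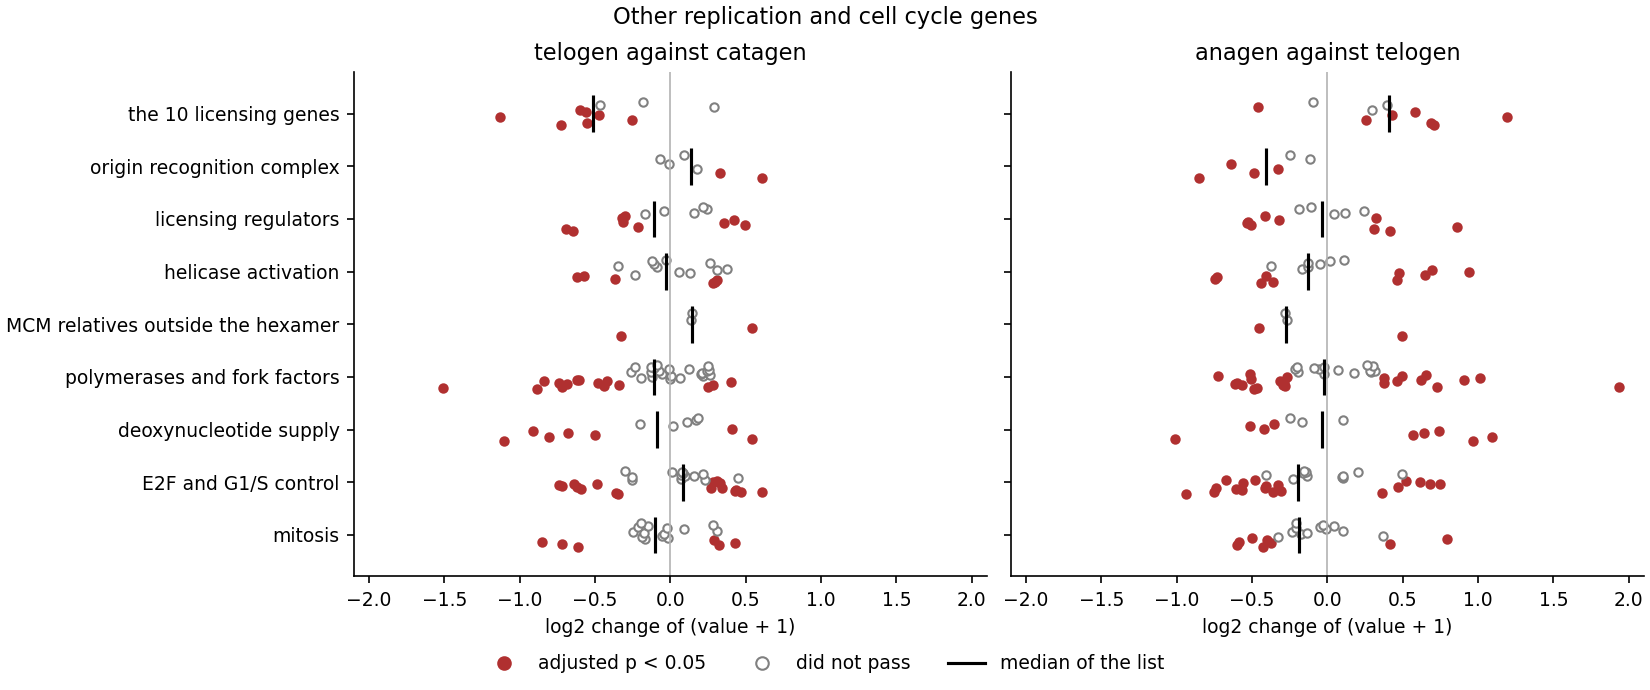
Log2 difference of (value + 1) for each gene of the 10 licensing genes and of 8 other lists, in telogen against catagen (left) and anagen against telogen (right); filled points passed at a limma adjusted p under 0.05, and black bars are medians of all genes in a list. The licensing genes have a median of -0.52 and 0.41, and the other 8 medians lie between -0.11 and 0.14 on the left and between -0.41 and -0.02 on the right.

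Among themselves, the 6 MCM genes varied together over the 12 libraries, which share their stages. Pearson's r ran from 0.80 to 0.98 over the 15 pairs (median 0.91), and from 0.33 to 0.94 (median 0.65) once the stage means were taken out. With the MCM genes, CDT1 had r of 0.60 to 0.86, PCNA 0.62 to 0.89 and RRM2 0.14 to 0.51. CDC6 had r of -0.56 to -0.24 with the MCM genes over all libraries, but 0.42 to 0.85 within stages. Single libraries departed from this: the February male library had the highest CDC6 value of telogen (12.15) and the lowest MCM5 value (9.48).

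The mean of the 6 standardised MCM profiles was used to find the genes most like them among 10651 genes with a mean of at least 5. The 10 most alike were THAP7 (r = 0.98), CARS2 (r = 0.98), NUBP1 (r = 0.98), WNT10A (r = 0.98), C7H19orf25 (r = 0.98), PUF60 (r = 0.98), KIF22 (r = 0.98), WDR24 (r = 0.98), CCDC28B (r = 0.98) and EMID1 (r = 0.98), over 12 libraries. WNT10A, a WNT ligand of hair follicles and teeth, averaged 10.8 ± 1.30 in anagen, 10.3 ± 1.90 in catagen and 4.46 ± 1.17 in telogen (SD, n = 4 each). KIF22, a kinesin of mitotic chromosomes, averaged 16.0 ± 1.30, 14.6 ± 3.42 and 7.68 ± 2.17 in the same order. Such profiles were common, as 956 of the ranked genes (8.98%) had an r of at least 0.9, and the libraries differ first of all between telogen and the other stages. MKI67 had an r of -0.80 and RRM1 of -0.29 with the same profile.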

How the data were processed

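Secondary hair follicles of goats were profiled by RNA sequencing in 12 libraries, with RNA extracted with RNAiso Plus per the labels' protocols and read on an Illumina instrument per the series' design text. The authors deposited 1 file a library with a signal per gene under a TPM heading, per the file headers. The submitters' processing notes name kallisto 0.46.1 and sleuth 0.30.0, and the genome build is not given in the sources used here. Since the library sums differ, the deposited signal was treated as a scaled abundance of unknown depth, no interval that needs read counts was given, and no count test was run. Of the 20326 gene IDs, 20294 matched the RefSeq table of goat genes, with the names the files give, and no sequence or coordinate is printed.

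From the signal, log2(value + 1) was fitted with limma 3.58.1 (R 4.3.3) over the 16095 genes that reached a value of 1 in 2 or more libraries, with a mean-variance trend and Benjamini-Hochberg adjustment over all of them. A gene was called at an adjusted p under 0.05. Stage comparisons used 4 libraries a stage, month comparisons 2 a month, and the sex comparison had month as a covariate. The fit was tested on simulated data. Fold changes are on the log2(value + 1) scale, which understates the change of low genes. Levels are means ± SD of the deposited values. Ratios were tested with exact permutation tests (scipy 1.17.1). No library pair shared more than 1.55% of its values, so all were counted as separate samples. The replicate numbers mark sex and were not shown to pair libraries across months.

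The 10 genes and all lists were chosen with earlier results of these data known. Each list is given by its counts and median, with up to 4 examples, those of highest mean level among the genes that passed; MKI67, RRM1 and the 10 genes are given whatever their result. The values of 1 gene of the deoxynucleotide supply list are not reported here. Alternatives were quantile normalisation, an equal library sum, an equal sum of genes other than ribosomal protein and mitochondrial ones, no filter, a mean value of at least 5, a pseudocount of 0.1, a replicate block, no trend, month means, fits of the compared stages alone, and fits without each library or both May libraries.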

Additional observations from a re-analysis of the deposited data

Results flagged for a closer look

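In 3 of the 30 groups of 4 libraries searched (10 genes in 3 stages), a library stood apart from the other 3 by a gap that, as a share of the group's range, exceeded the critical value of Dixon's test, where chance gives about 1 in 20 groups. MCM5 in catagen had 39.87 in the November female library and 27.57 in the next one. CDT1 in telogen had 7.94 in the March male library and 5.22 in the next one. RRM2 in catagen had 29.02 in the November male library, below 37.6 in the next one. The March male library also had the highest telogen value of MCM2, MCM3, MCM4, MCM5 and MCM7, and the lowest mitochondrial share of its stage (4.63%). The part of that share in its MCM values was not tested.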

How the results depend on the processing

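MCM2, MCM3, MCM5, MCM6 and MCM7 kept their direction and their call in both comparisons with telogen in all 23 alternatives, and so did PCNA in telogen against catagen. MCM5 ranged from -1.36 to -0.99 and MCM7 from -0.61 to -0.47 in telogen against catagen. The number of the 10 genes called was 6 to 8 in telogen against catagen and 5 to 8 in anagen against telogen. Leaving out each library in turn gave 6 to 8 in both, 0 to 5 in February against December, 0 to 4 in May against March, 2 to 5 in the F test over months, and 0 in the other comparisons. Without both May libraries, February against December had 2. With the replicate number as a block, May against March had 1 and telogen against catagen 6, MCM4 not passing (limma adjusted p = 0.0526). Same-numbered libraries of different stages had residual correlations of -0.15 to 0.24 over 24 pairs (median 0.05, 8 pairs over 0.1). Other-numbered libraries had -0.30 to 0.33 over 24 pairs (median -0.03, 4 pairs over 0.1). The 2 ranges overlapped, so the pairing by number was not shown. The cause of these shifts was not tested, except that leaving out libraries leaves fewer to test.

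Differences that changed sign were all small and not called. In catagen against anagen, MCM2 was -0.0214 with an equal library sum and -0.0117 without both May libraries, MCM4 was -0.0428 and -0.0568 under the same settings, and MCM7 was 0.0280 with an equal sum of other genes and 0.00975 without both May libraries. Without both May libraries CDT1 was -0.00629 and MKI67 0.0702 there, and RRM2 was 0.0233 in anagen against telogen. Leaving out each library in turn, catagen against anagen ranged from -0.0801 to 0.0876 for MCM2, from -0.0530 to 0.0363 for MCM4, from -0.206 to 1.20e-05 for MCM5, from -0.0700 to 0.0332 for MCM7 and from -0.0644 to 0.217 for CDT1, and RRM1 in telogen against catagen ranged from -0.0281 to 0.0774. Among the other lists, licensing regulators had 5 called in telogen against catagen with an equal library sum, an equal sum of other genes or month means, and helicase activation 2 with month means. Without both May libraries, anagen against telogen had 5 regulators, 15 polymerase and fork genes and 12 E2F and G1/S genes called. The depth is unknown, so no limit can be set for low values.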
